A study of Mus musculus with 24 samples.

Results

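Sites that carried the active mark H3K27ac in the mouse embryonic forebrain and lay under the repressive mark H3K27me3 in the newborn lens were examined. They are the autosomal forebrain H3K27ac peaks that overlapped a lens H3K27me3 island by at least 1 bp and overlapped no lens H3K27ac peak. By this rule 2672 sites were chosen of 26231 autosomal forebrain H3K27ac peaks, a share of 10.2% (95% interval 9.82 to 10.6), and of 26863 such peaks on all chromosomes. The sites were thus selected on the forebrain H3K27ac, lens H3K27ac and lens H3K27me3 lists, and values from those 3 lists are given as a description only. Both tissues' H3K4me1, H3K4me3, RNA polymerase II and Pax6 took no part in the choice, nor did forebrain H3K27me3 or lens FAIRE, which maps open chromatin.

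Forebrain was taken from CD-1 mouse embryos at E12.5 and whole lens from CD-1 newborns at P1, with no mutant or treatment among the labels. Each list came from 1 library, except that the 2 forebrain Pax6 replicates share 1 list. The sources used here do not say whether tissue of several animals was pooled. There was therefore no replicate spread and no test between the tissues, and tissue and age cannot be told apart.

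H3K27ac is laid down on nucleosomes of active promoters and enhancers, while H3K27me3 is written by Polycomb repressive complex 2 over silenced developmental genes. Both modify the same lysine, so a single histone tail cannot carry both. H3K4me1 is typical of enhancers and can stay on enhancers that are not active, and H3K4me3 is typical of promoters. Promoters with both H3K4me3 and H3K27me3 are called bivalent and are common at developmental regulator genes. Pax6 is a paired-domain and homeodomain transcription factor needed for both forebrain and lens development. These were whole tissues, so whether 2 marks at a site lay in the same cells or in different cells cannot be told apart.

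The shares below count sites that overlap a deposited list by at least 1 bp, and the ranges in parentheses are exact Clopper-Pearson 95% intervals over sites. They cover counting error only, and sites that share an island are not independent. Each share is set beside that of the 11332 autosomal forebrain H3K27ac peaks with neither lens mark, that of the 11545 with lens H3K27ac and no lens H3K27me3, and that of all 26231. Another 682 peaks had both lens marks. In RNA from the same tissues, 10 of 10 forebrain marker genes were at 1 RPKM or more in forebrain and 10 of 10 lens markers in lens epithelium. Of the forebrain markers, 3 reached that level in lens epithelium and 2 in lens fibers, where 6 were at 0. Of the lens markers 9 reached it in lens fibers and 5 in forebrain, where the highest was Cryaa at 18.2 RPKM. Blood markers summed to 1131 RPKM in the forebrain library, 343 in the epithelium and 5.97 in the fibers. Most of that sum was Hba-a1, at 956 in forebrain and 166 in epithelium, while Hbb-b1 was higher in epithelium, at 173 against 153. Endothelium markers summed to 16.9 RPKM in forebrain, 40.2 in epithelium and 1.70 in fibers. Myeloid markers summed to 3.30, 4.80 and 0.413. Of the 4 mesenchyme markers, Pdgfra was higher in the epithelium, at 52.9 against 2.89 RPKM in forebrain, and Col1a1, Twist1 and Prrx1 were lower there, at 0.618 to 0.715 against 2.02 to 5.37. Retina markers summed to 28.1 RPKM in lens epithelium and pigment and ciliary markers to 56.4, against 0.310 and 5.27 in forebrain. What part such cells had in the chromatin lists was not tested.

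By the values that chose them, the sites were of middling strength. Their median H3K27ac fold enrichment over control was 5.93, from 2.92 to 35.6, against 5.27 at sites with neither lens mark and 8.23 at sites with lens H3K27ac. Their median width was 544 bp, from 255 to 19591 bp, against 422 bp at sites with neither mark. The lens island reached over most of a typical site. Of the 2672 sites 1909 (71.4%) were covered whole by lens H3K27me3, and at 2263 (84.7%) the H3K27ac summit lay inside the island. At the other end, 71 sites (2.66%) had less than 10% of their width in an island. The smallest overlaps were 1 bp at chr6:120443486-120444001, 2 bp at chr9:65916999-65917316 and 3 bp at chr11:110340414-110341203. Just outside the rule, 110 peaks with neither lens mark lay less than 100 bp from an island, the nearest at chr12:29924525-29925600, which touched one. All coordinates are on mm9 and counted from 1.

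The sites were spread over 1917 of 23959 autosomal lens H3K27me3 islands. Most of these islands, 1434, held a single site, and 483 held more. A group of 34 islands held at least 5 sites each and 223 together, and the richest held 14. The islands with sites had a median length of 4200 bp and a median ChIP over control ratio of 3.79, against 2800 bp and 3.02 for other autosomal islands. Longer islands offer more room for an overlap, so these lengths follow in part from the rule. Every autosome contributed, from 5.45% of its forebrain H3K27ac peaks on chromosome 16, 5.69% on chromosome 10 and 5.89% on chromosome 17 to 13.0% on chromosome 6.

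Most of the sites carried H3K27me3 in the forebrain too, although they were chosen for forebrain H3K27ac. Forebrain H3K27me3 overlapped 1909 sites, 71.4% (69.7 to 73.2), by coincidence the same number as were covered whole in lens. Over all forebrain H3K27ac peaks the share was 17.4%, at sites with neither lens mark 10.8% (10.3 to 11.4), and at sites with lens H3K27ac 8.09%. The 682 peaks with both lens marks had 71.8%, close to the sites described here. Lens H3K27me3 islands often coincided with forebrain ones in any case: a forebrain island overlapped 74.5% (72.5 to 76.4) of the 1917 islands with sites and 57.7% (57.0 to 58.3) of the 22042 without, which were shorter. The overlap was seldom marginal, since 83.2% of the 1909 sites lay whole inside a forebrain island and 90.0% had their H3K27ac summit in it. At 1541 of the 2672 sites, 57.7%, the summit lay in H3K27me3 of both tissues. Thus most of these sites did not exchange acetylation for methylation between the tissues but had both marks called in forebrain and the methylation alone in lens.

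**Figure D1:**
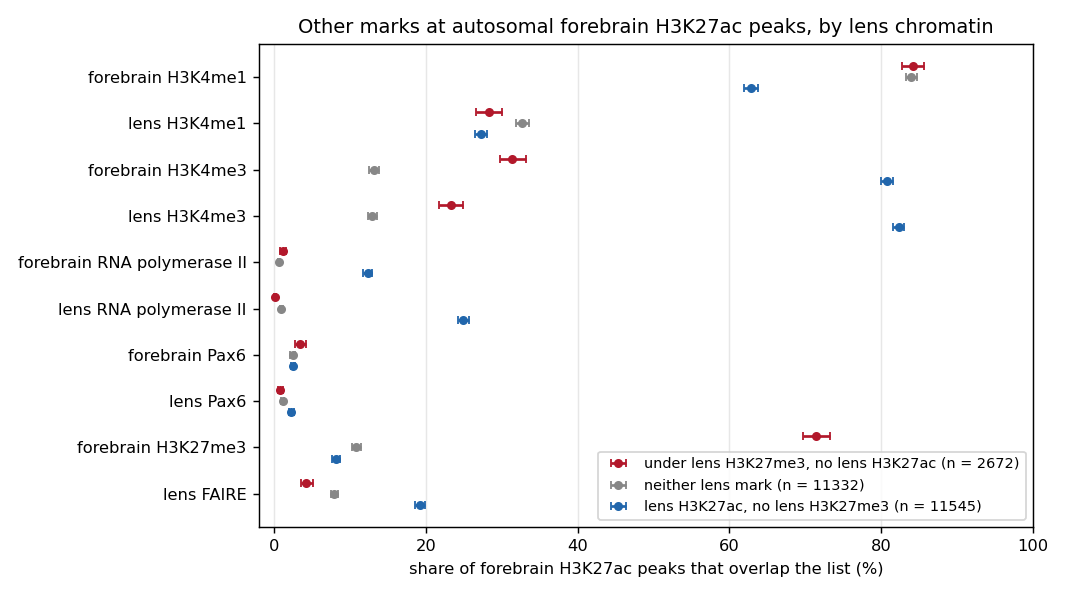
Share of autosomal forebrain H3K27ac peaks that overlapped each list (%, horizontal axis), for the 2672 sites under lens H3K27me3 (red), the 11332 with neither lens mark (grey) and the 11545 with lens H3K27ac (blue), with exact 95% intervals. Forebrain H3K27me3 stands apart in red at 71.4%, forebrain H3K4me1 is level in red and grey at 84.2% and 84.0%, and lens RNA polymerase II is close to 0 in red.

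The forebrain H3K27me3 share hardly moved with the width of the site. In the 4 width classes set by the quartiles of all autosomal peaks (up to 357, 528 and 871 bp, and wider), it was 71.9%, 72.2%, 69.7% and 72.0% at the sites and 10.5%, 10.6%, 12.2% and 10.3% at sites with neither lens mark. It was also level across the quartiles of H3K27ac fold enrichment of the sites, at 70.1%, 70.7%, 73.1% and 72.0%. So the strongest forebrain acetylation came with forebrain H3K27me3 as often as the weakest. A peak with neither lens mark but within 1 kb of a lens island had forebrain H3K27me3 in 43.2% (39.5 to 46.8) of 732 cases, between the 2 classes. The forebrain H3K27me3 list covered 185 Mb and the lens list 124 Mb.

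The 763 sites without forebrain H3K27me3 are those with H3K27ac and no H3K27me3 in forebrain, and H3K27me3 and no H3K27ac in lens. For 448 of them, 58.7%, no forebrain H3K27me3 island lay within 10 kb, and the median distance to one was 17.1 kb. An island within 1 kb was found for 108. The rule used the lens H3K27me3 list, so its ratios are given as a description, and sites in 1 island share its ratio. The median ratio was 3.01 (quartiles 2.41 and 3.87) for the 763 sites. It was 4.66 (3.38 and 6.77) for the 1909 sites marked in both tissues. The median H3K27ac fold enrichments of the 763 and the 1909 were 5.75 and 5.93, and their median widths 547 and 543 bp. The other marks were those of enhancers more often: forebrain H3K4me1 was on 90.7% of the 763 and 81.6% of the 1909, and forebrain H3K4me3 on 15.3% and 37.9%. Lens H3K4me3 was on 10.6% and 28.3%, and lens FAIRE on 6.55% and 3.30%.

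**Figure D2:**
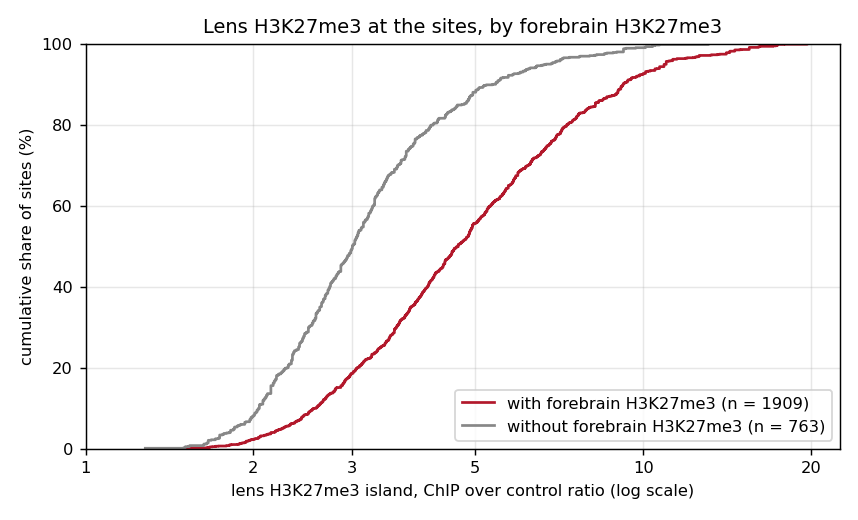
Cumulative share of sites (%, vertical axis) by the ChIP over control ratio of their lens H3K27me3 island (log scale, horizontal axis), for 1909 sites with and 763 sites without forebrain H3K27me3. The curve of sites without it lies to the left, with a median ratio of 3.01 against 4.66.

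H3K4me1, the enhancer mark, was in total as common in forebrain at these sites as at sites with neither lens mark. It overlapped 2250 sites, 84.2% (82.8 to 85.6), against 84.0% (83.3 to 84.7) with neither lens mark, 62.8% with lens H3K27ac and 74.6% over all peaks. The median ChIP over control ratio of the island was 3.19 at the sites and 3.27 at sites with neither lens mark. The level totals were not kept within classes of width. From narrow to wide, forebrain H3K4me1 was at 80.0%, 82.0%, 83.1% and 91.3% of the sites. With neither lens mark it was at 78.0%, 81.7%, 89.0% and 96.8%. Split by forebrain H3K4me3, the sites were higher in both parts, as given below. In lens, H3K4me1 overlapped 756 sites, 28.3% (26.6 to 30.0), against 32.7% (31.9 to 33.6) with neither lens mark and 30.1% over all peaks. The sites were thus slightly below both, in intervals that did not overlap those of the sites with neither mark. Split by forebrain H3K4me3, the order was not kept. With that mark, lens H3K4me1 was at 18.0% (15.4 to 20.7) of the sites, against 15.3% (13.5 to 17.3) with neither lens mark. Without it the shares were 33.0% and 35.3%, with intervals that overlap. Of the 2250 sites with forebrain H3K4me1, 722 (32.1%, 30.2 to 34.1) had lens H3K4me1 as well, against 38.0% (37.0 to 39.0) with neither lens mark. Of the 422 without it, 8.06% had lens H3K4me1. So part of the forebrain H3K4me1 sites had the mark in lens too, under lens H3K27me3. The lens H3K4me1 islands held 1258799 ChIP reads and the forebrain ones 5110088, so the 2 tissues' shares are not on the same footing.

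Width mattered for lens H3K4me1 in both classes. It was on 24.9% of the narrowest and 35.6% of the widest sites, and on 28.7% and 46.4% of sites with neither lens mark. The gap between the classes was thus larger among wide peaks.

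H3K4me3, the promoter mark, was at a minority of the sites. In forebrain it overlapped 840 sites, 31.4% (29.7 to 33.2), against 13.1% (upper limit 13.8) with neither lens mark and 80.8% with lens H3K27ac. Over all peaks the share was 46.3%. In lens it overlapped 622 sites, 23.3% (21.7 to 24.9), against 12.9% (12.3 to 13.5), 82.3% and 46.2% over all peaks. In total the sites therefore lay above peaks with neither lens mark and well below peaks that were acetylated in both tissues. The 732 peaks with neither lens mark but within 1 kb of a lens island were above the sites. They had 41.9% (38.3 to 45.6) in forebrain and 40.0% (36.5 to 43.7) in lens. The 682 peaks with both lens marks had 74.2% and 77.6%. Split by forebrain H3K4me3, the order for lens H3K4me3 was not kept, as the shares below show. Where H3K4me3 was present at the sites its fold enrichment was low. The forebrain median was 7.78, against 8.84 with neither lens mark and 15.4 with lens H3K27ac. The lens medians were 6.98, 9.31 and 16.7.

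H3K4me3 was more frequent at strong and at wide acetylated sites. Across the quartiles of H3K27ac fold enrichment, the share with forebrain H3K4me3 was 17.5%, 22.6%, 35.2% and 50.4%, and with lens H3K4me3 17.2%, 25.6% and 38.3% in the upper 3, after 80 of 668 sites in the lowest. From the narrowest to the widest class the forebrain share went from 20.9% to 45.0%, while at sites with neither lens mark it went from 13.7% to 9.25%. Among peaks over 871 bp the 2 classes were thus farther apart than among narrow ones.

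**Figure D3:**
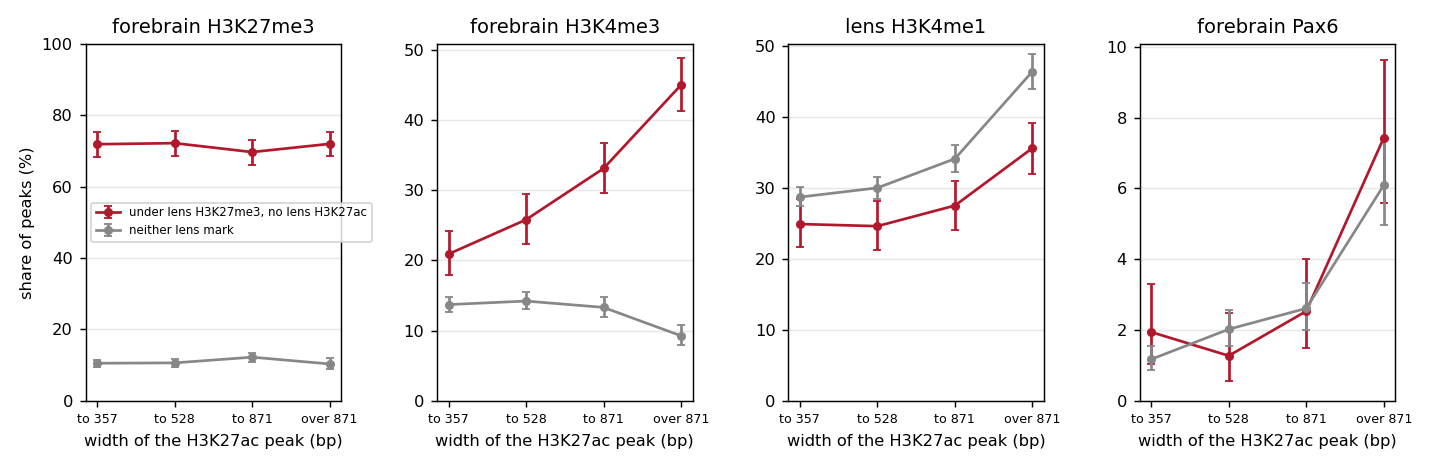
Share of peaks with forebrain H3K27me3, forebrain H3K4me3, lens H3K4me1 and forebrain Pax6 (%, vertical axes, scaled per panel) in 4 classes of H3K27ac peak width (horizontal axis), for sites under lens H3K27me3 (red) and with neither lens mark (grey), with exact 95% intervals. The red H3K27me3 share is flat near 72%, the red H3K4me3 share reaches 45.0% in the widest class, and the Pax6 intervals of the classes overlap throughout.

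The 840 sites with forebrain H3K4me3 mostly had H3K4me3 in lens as well, under H3K27me3 in both tissues. Lens H3K4me3 was at 554 of them, 66.0% (62.6 to 69.2), against 84.7% (82.8 to 86.5) of the 1487 peaks with neither lens mark and forebrain H3K4me3. Forebrain H3K27me3 was at 723 of the 840, 86.1%, against 23.1%. The bivalent pair of forebrain H3K4me3 and H3K27me3 was thus at 27.1% (25.4 to 28.8) of all 2672 sites and at 3.03% (2.72 to 3.36) of those with neither lens mark. Forebrain H3K27me3 was as frequent at the 286 sites with H3K4me3 in forebrain alone (84.3%, 79.5 to 88.3) as at the 554 with it in both tissues (87.0%, 83.9 to 89.7), with intervals that overlap. Forebrain H3K4me1 lay at 68.8% of the 840 and 51.2% of the 1487.

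The 1832 sites without forebrain H3K4me3 had an enhancer-type pattern. Forebrain H3K4me1 was at 91.3% of them, lens H3K4me1 at 33.0% (30.9 to 35.2) and lens H3K4me3 at 3.71%, against 89.0%, 35.3% (34.4 to 36.3) and 2.01% of the 9845 such peaks with neither lens mark. Forebrain H3K27me3 again set the classes apart, at 64.7% against 8.98%. No H3K4me3 was called in either tissue at 1764 sites, 66.0% of the 2672, and at 85.1% of sites with neither lens mark. Only 160 sites, 5.99%, had neither forebrain H3K4me1 nor forebrain H3K4me3.

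Around the summits the marks had different shapes at the 2 kinds of site. At the 1832 sites without forebrain H3K4me3, lens H3K27me3 covered the summit in 90.1%, positions 1 kb away in 76.4% and 77.5%, and positions 10 kb away in 28.1% and 28.2%. Part of that peak is set by the rule. Forebrain H3K27me3, which the rule did not use, formed a plateau, with 60.6% at the summit, 59.4% and 59.5% at 1 kb and 39.7% and 39.6% at 5 kb. Lens H3K4me1 was centred on the forebrain summit, with 31.8% there, 24.3% and 24.2% at 1 kb and 7.75% and 7.04% at 10 kb. Sites with neither lens mark had a like shape, with 33.8% at the summit and 27.2% and 27.8% at 1 kb. At the 840 sites with forebrain H3K4me3 both tissues' H3K27me3 dipped at the summit. In lens it covered 73.0% of summits and 81.4% and 78.2% of positions 1 kb away, and in forebrain 72.3%, 79.2% and 75.1%. Forebrain H3K27me3 dipped at sites with neither lens mark as well, with 17.1% at the summit and 26.8% and 27.9% at 1 kb. At the 840 sites forebrain H3K4me1 dipped as well, with 52.0% (48.6 to 55.4) at the summit and 59.8% (56.4 to 63.1) and 54.6% (51.2 to 58.0) at 1 kb. For each of these lists at the 840 sites, the summit interval overlapped that of the second position at 1 kb. The dips were thus slight on that side, and the lens H3K27me3 list was used by the rule.

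**Figure D4:**
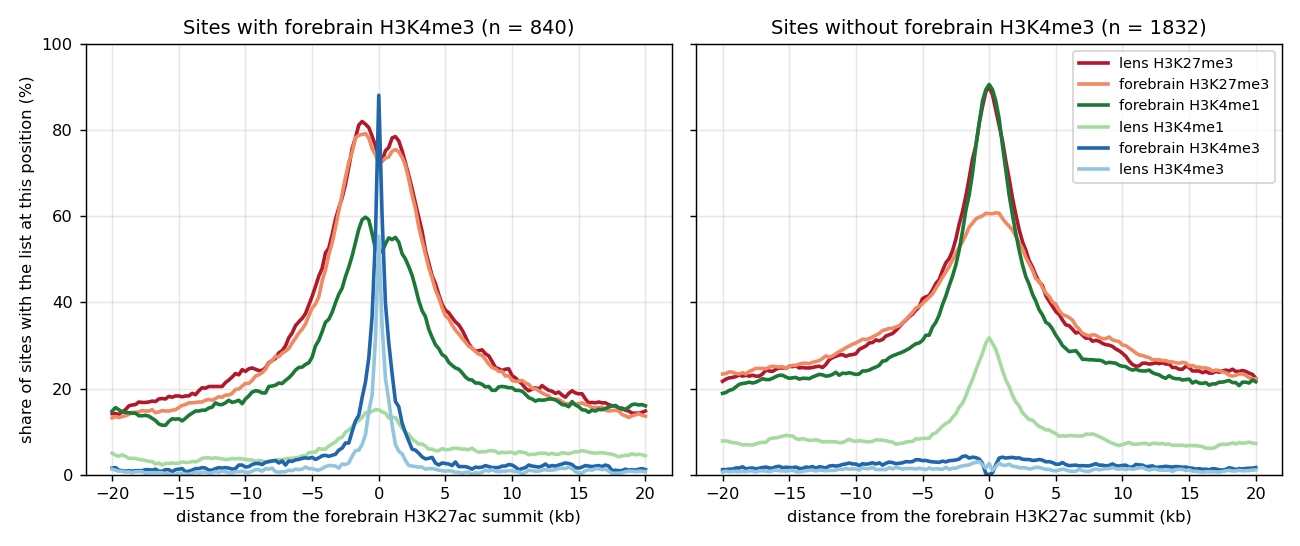
Share of sites at which each list covers a position (%, vertical axis) by distance from the forebrain H3K27ac summit (kb, horizontal axis), for 840 sites with forebrain H3K4me3 (left) and 1832 without (right). At left both H3K27me3 lines dip at the summit, to 73.0% in lens and 72.3% in forebrain, and at right forebrain H3K27me3 is flat near 60% within 1 kb while lens H3K27me3 peaks at 90.1%, in part by the rule.

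RNA polymerase II was called at few of the sites in forebrain and at hardly any in lens. The forebrain list overlapped 30 sites, 1.12% (0.759 to 1.60), against 0.609% (0.474 to 0.770) with neither lens mark, 12.3% with lens H3K27ac and 6.06% over all peaks. The intervals of the first 2 overlap narrowly. With forebrain H3K4me3, which 24 of the 30 had, the sites were lower, at 2.86% (1.84 to 4.22) against 3.77% (2.86 to 4.86). Without it they had 0.328% (0.120 to 0.711) against 0.132% (0.0703 to 0.226). In both cases the intervals overlap. In lens 2 sites were overlapped, 0.0749% (0.00907 to 0.270), against 105 sites or 0.927% (0.758 to 1.12) with neither lens mark, 24.9% with lens H3K27ac and 11.5% over all peaks. Both lens polymerase sites had H3K4me3 in both tissues. They were chr13:21845966-21846681, with fold enrichments of 8.03 in lens and 13.1 in forebrain, and chr4:86520371-86520753, with 6.02 in lens and no forebrain call. Of the 1832 sites without forebrain H3K4me3, 0 overlapped lens polymerase, against 24 of 9845 (0.244%) with neither lens mark. The peaks with both lens marks had it at 4.99%, although they too lay under lens H3K27me3.

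In forebrain the highest polymerase enrichment at the sites was 23.5, at chr13:21870629-21871090, followed by 16.2 at chr5:67067440-67068254. That at chr3:88018420-88028136 was 12.7, on a site 9717 bp wide with an H3K27ac fold enrichment of 21.6 and a lens H3K27me3 island of ratio 10.7. Also among the 5 highest, chr13:21845966-21846681 and chr13:21844482-21844793, lay in 1 lens island of ratio 2.05 with 63 ChIP and 22 control reads, among the weaker islands. Forebrain polymerase was more frequent at strongly acetylated sites, with 0.150% in the lowest and 3.59% in the highest quartile of H3K27ac fold enrichment.

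Open chromatin in lens, read by FAIRE, was rarer at the sites than elsewhere. It overlapped 113 sites, 4.23% (3.50 to 5.06), against 7.92% (7.42 to 8.43) with neither lens mark, 19.2% with lens H3K27ac and 12.6% over all peaks. The difference was seen with forebrain H3K4me3, at 3.93% against 11.2%, and without it, at 4.37% against 7.43%. As a description, the lens islands of sites with lens FAIRE had a median ratio of 3.27, against 4.07 for the sites without it. At 1359 sites, 50.9% (48.9 to 52.8), none of lens H3K4me1, H3K4me3, polymerase, Pax6 or FAIRE was called, much as at sites with neither lens mark, where the share was 52.6% (51.7 to 53.6). In lens, then, the sites were about as often free of all 5 features as sites with neither lens mark. The single features were not alike. In total, lens H3K4me3 was more frequent at the sites, lens H3K4me1, polymerase and FAIRE were less frequent, and the lens Pax6 intervals overlapped. The share free of all 5 was not split by forebrain H3K4me3.

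The lists used by the rule are described here without reading a difference from them. A lens H3K27ac peak lay within 1 kb of 6.74% of the sites and within 10 kb of 19.9%, against 14.3% and 28.1% of those with neither lens mark. Of the 1917 lens islands, 108 held a lens H3K27ac peak elsewhere along their length.

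Pax6 binding was called at a small number of the sites, more in forebrain than in lens. The forebrain list overlapped 90 sites, 3.37% (2.72 to 4.12), against 2.41% (2.13 to 2.71) with neither lens mark, 2.47% with lens H3K27ac and 2.61% over all peaks. In a window of 500 bp centred on the H3K27ac summit the first 2 shares were 2.28% and 2.27%, so the difference was not seen when every site was given the same width. The lens list overlapped 21 sites, 0.786% (0.487 to 1.20), against 1.11% (0.927 to 1.32), 2.26% and 1.57% over all peaks. Read the other way, 88 of 3485 autosomal forebrain Pax6 peaks and 20 of 3757 lens ones lay at these sites. Pax6 of both tissues was at 14 sites, and at all 14 the 2 peaks overlapped each other. Another 76 had forebrain Pax6 alone and 7 lens Pax6 alone.

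The 3 strongest forebrain Pax6 peaks at the sites sat on acetylation of middling or low strength. The peak at chr8:12430385-12430709 had a Pax6 fold enrichment of 28.8 and an H3K27ac one of 6.26, with H3K27me3 of both tissues over the whole site. At chr7:116318824-116319158 Pax6 reached 25.8 and H3K27ac 3.95, again whole under H3K27me3 of both tissues, and a lens FAIRE region was present without lens Pax6. At chr15:98871784-98872047 Pax6 reached 27.5 in forebrain and 19.7 in lens, the highest lens value of all the sites. That site had no forebrain H3K27me3, and its lens island was weak, with 58 ChIP and 25 control reads and a ratio of 1.66.

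Of the 10 highest forebrain Pax6 sites, 7 also had a lens Pax6 peak. They include chr4:154326963-154327527 with 23.9 in forebrain and 8.54 in lens, chr4:129554283-129555066 with 15.1 and 11.8, and chr10:42310779-42312246 with 17.4 and 6.90. The last lay in a lens island of ratio 8.21 with 1810 ChIP and 158 control reads and had H3K4me1 and H3K4me3 in both tissues. The site with the strongest acetylation of the 10 was chr1:42750195-42752271, with 23.7 for H3K27ac and 13.4 for Pax6. It lay whole in a lens island of ratio 9.22, without forebrain H3K27me3 and without lens Pax6, and had forebrain H3K4me3 but no H3K4me1. Among the 7 bound in lens alone was chr5:132509502-132509922, with a lens Pax6 enrichment of 14.1, lens FAIRE and H3K4me1 in both tissues.

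The 90 sites with forebrain Pax6 had H3K4me1 and open chromatin more often than the 2582 without it. Forebrain H3K4me1 was at 98.9% of them, lens H3K4me1 at 65.6% against 697 of the 2582, lens FAIRE at 25.6% against 3.49% and lens Pax6 at 15.6% against 0.271%. Forebrain H3K27me3 was at 65.6% against 71.6%. They were also wider, with a median of 1037 bp against 535 bp, and what part width had in these shares was not tested within this group. The Pax6 summit lay a median of 328 bp from the H3K27ac summit, from 24 to 6367 bp, against 265 bp at sites with neither lens mark. With width the forebrain Pax6 share went from 1.94% in the narrowest class to 7.43% in the widest, and at sites with neither lens mark from 1.17% to 6.09%. In the 2 middle classes the sites were lower, at 1.27% and 2.53% against 2.02% and 2.61%.

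Of the 10 most strongly acetylated sites 9 had forebrain H3K4me3, and 7 of those had lens H3K4me3 too. No lens polymerase or lens Pax6 was called at any of the 10. The highest H3K27ac fold enrichment was 35.6, at chr10:79761799-79764425, a 2627 bp site whole within H3K27me3 of both tissues, with forebrain H3K4me3 of 12.4 and forebrain polymerase of 7.92. Its lens island had a ratio of 2.81, with 102 ChIP and 26 control reads. A pair on chromosome 7, at 31.9 and 30.6, shared 1 lens island of ratio 9.06 with 2036 ChIP and 161 control reads. They were chr7:86686225-86696143, the one site of the 10 without forebrain H3K4me3, with forebrain Pax6 of 3.57 and lens FAIRE, and chr7:86675907-86684161, with forebrain polymerase of 10.8.

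The widest of all the sites was chr12:50485243-50504833, with an H3K27ac enrichment of 29.4 over 19591 bp. It had forebrain H3K4me3 of 24.2 and lens H3K4me3 of 5.04, forebrain polymerase of 6.99 and forebrain Pax6 of 5.16, and 96.1% of it lay under H3K27me3 in each tissue. Of the 10, chr11:23977945-23986699 and chr4:129950611-129952807 had no forebrain H3K27me3. Their H3K27ac enrichments were 29.0 and 28.0, their forebrain H3K4me3 19.9 and 19.4, their lens H3K4me3 9.31 and 8.14, and their lens H3K27me3 ratios 2.35 and 5.06. The lens island covered 49.1% of the first and 100% of the second. By H3K27ac enrichment these are the strongest examples of H3K27ac without H3K27me3 in forebrain against H3K27me3 in lens, and both had H3K4me3 in lens.

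The strongest lens H3K4me3 at the sites came with overlaps of varied depth. It was 22.7 at chr8:13907375-13907629, where 10.2% of the site lay in the lens island, and 21.7 at chr4:104831561-104831987, which was wholly inside an island and had no forebrain H3K27me3. At chr3:94964355-94965419 it was 19.4 with 39.3% of the site covered, and chr8:49639870-49641537 and chr8:49639173-49639538 shared another peak of 19.4, with 19.8% and 100% of the site covered. Among the lens islands with sites, the highest ratio was 19.7, with 220 ChIP and 8 control reads. That island covered chr17:45685169-45685879, which had forebrain H3K27me3 and forebrain H3K4me3 and no lens H3K4me3. An island of ratio 17.4 with 608 ChIP and 25 control reads held 6 sites on chromosome 11, of which 1 had forebrain H3K4me3. The 3 with the highest H3K27ac had 17.5 at chr11:98199392-98200191, 14.5 at chr11:98194019-98196600 and 13.8 at chr11:98187600-98190847. All 6 overlapped forebrain H3K27me3.

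The 5 lens islands with the most sites were long domains with several acetylated stretches in forebrain. The island chr6:6814001-6846800 held 14 sites of H3K27ac fold enrichment from 3.42 upwards, with a median of 5.46, covering 36.3% of its length, with 2269 ChIP and 198 control reads. Forebrain H3K27me3 covered 84.1% of it and forebrain H3K4me1 20.1%, and it held 7 forebrain H3K4me3 peaks and no lens H3K4me1, H3K4me3, Pax6 or FAIRE. The island chr2:71367801-71392800, with 10 sites and a ratio of 15.5, was alike in its 7 forebrain H3K4me3 peaks and 23.2% of forebrain H3K4me1, but had 1 lens H3K4me3 peak and 19.2% of lens H3K4me1. Of their sites, 7 of 14 and 6 of 10 had forebrain H3K4me3.

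The other 3 were covered by forebrain H3K4me1 almost throughout. The neighbouring islands chr8:87256801-87297600 with 12 sites and chr8:87298401-87323200 with 8 had forebrain H3K4me1 over 94.1% and 96.0% of their length and lens H3K4me1 over 30.4% and 47.6%. Each held 1 forebrain Pax6 peak and 1 forebrain H3K4me3 peak, and the second held 2 lens H3K27ac peaks, so that 2 of its 10 forebrain H3K27ac peaks were not sites by the rule. The island chr13:78303801-78327200 held 10 sites, with forebrain H3K27ac over 67.3% of its length, forebrain H3K4me1 over 96.6% and lens H3K4me1 over 0%. It had 1 forebrain Pax6 peak and 3 lens FAIRE regions. Forebrain H3K27me3 covered 98.0% to 100% of these 3 islands. Genes at these positions and the DNA sequences of the sites were not analysed here.

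**Figure D5:**
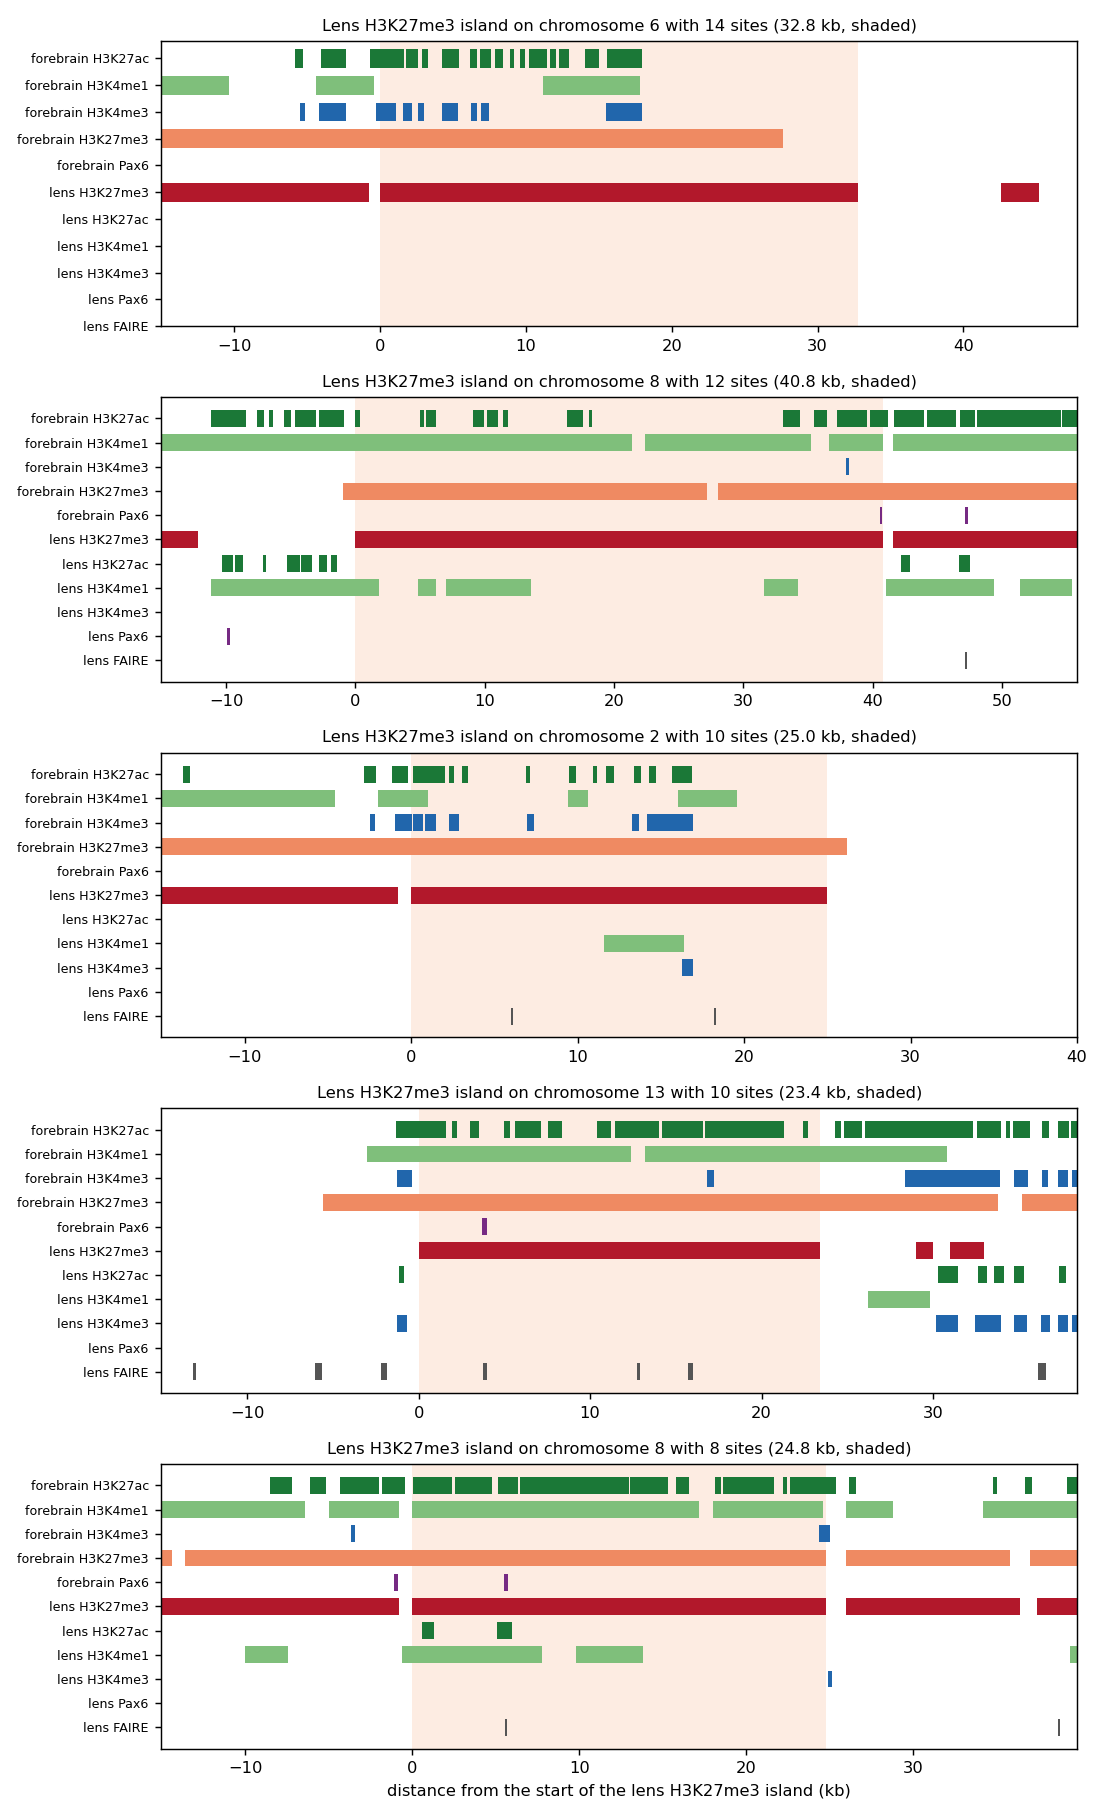
Intervals of each list (rows) over the 5 lens H3K27me3 islands with the most sites, by distance from the island's start (kb, horizontal axis), with 15 kb on either side and the island shaded. Inside the shaded islands the blocks of forebrain H3K27ac lie mostly within forebrain H3K27me3 (orange) in all 5, while lens H3K27ac appears inside the shaded span of the last island alone.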

How the data were processed

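Chromatin was measured by ChIP-seq and FAIRE, and RNA by RNA-seq, in CD-1 forebrain at E12.5 and lens at P1. MACS2 served the authors for peaks, on mm9, per the submitters' processing notes. The deposited peak lists give the fold enrichment over control (a ratio) and the −log10 q-value. Their largest q-values were 0.00413 to 0.00966. SICER served for H3K4me1 and H3K27me3, at a window of 200 bp, a gap of 600 bp and an FDR of 0.001 as written in the list names. Each deposited island has its ChIP and control read counts, unscaled, their ratio scaled by library size, and an FDR, a p-value adjusted as a q-value. The FAIRE list holds positions only. For RNA the authors deposited RPKM. For RNA, the submitters' processing notes list TopHat2, Cufflinks and Cuffdiff without their roles. For ChIP-seq the sources used here give no aligner, no read depth behind the MACS2 lists, no choice of inputs and no way in which the 2 forebrain Pax6 replicates were joined. Islands held 5110088 and 1258799 ChIP reads for H3K4me1 in forebrain and lens, and 9399205 and 3423912 for H3K27me3. No site lay in an island with 100 or more control reads per kb.

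Intervals were overlapped at 1 bp or more in Python 3.11.15 (numpy 2.4.6, pandas 2.3.3, scipy 1.17.1). Tested on simulated data, the code found 300 of 300 planted overlaps and counted 0 of 300 touching intervals, and it gave bedtools 2.31.1's count in 26 of 26 settings. With 1 list per group no test was made. A site's value for a list is the highest among the overlapping intervals. Named regions are the 10 sites of highest H3K27ac and of highest forebrain Pax6 enrichment, the 5 of highest lens Pax6, polymerase, lens H3K4me3 or lens island ratio, and the 5 islands with the most sites, and not all are printed. The regions at the edge of the rule were named after their values were seen. The sites, lists and alternatives were chosen with earlier results of these data known. No mm9 annotation was used here, so no gene was assigned to a site.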

Additional observations from a re-analysis of the deposited data

How the results depend on the processing

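The 10 shares and the number of sites were recomputed under 94 alternatives, of which 66 left a share within the 95% interval of its reported value or the number of sites within 1.5 times. With a gap of up to 1 kb counted as overlap, the shares were 75.5% for forebrain H3K27me3 (16.1% with neither lens mark), 89.5% (88.1%) and 31.8% (37.0%) for forebrain and lens H3K4me1, 40.0% (19.8%) and 31.0% (19.1%) for forebrain and lens H3K4me3, 1.80% (1.82%) and 0.487% (2.90%) for forebrain and lens polymerase, 7.78% (5.64%) and 1.65% (2.24%) for forebrain and lens Pax6, and 12.6% (19.0%) for lens FAIRE. In a window of 500 bp on each summit they were 69.1% for forebrain H3K27me3, 81.2% for forebrain H3K4me1, 2.28% for forebrain Pax6 and 3.33% for lens FAIRE. With 1 site per island forebrain H3K4me1 was 81.9%, as with the X and Y chromosomes included, and forebrain and lens H3K4me3 were 36.9% and 29.8%. Requiring an island over 0.5 of the site gave 85.7% for forebrain H3K4me1 and 27.2% and 19.1% for forebrain and lens H3K4me3. H3K27ac peaks with −log10 q of at least 5 gave 34.3% and 25.3% for forebrain and lens H3K4me3. Stricter lens H3K27me3 islands (ratio of at least 2 and FDR of at most 1e-10) gave 77.1% for forebrain H3K27me3, 34.3% and 25.2% for forebrain and lens H3K4me3, and 0 for lens polymerase. A stricter lens H3K4me3 list gave 20.6%. The cause of these shifts was not tested. The order against sites with neither lens mark was the same in 10 of 10 settings for H3K27me3, H3K4me3, lens H3K4me1 and lens polymerase. It was the same in 9 of 9 for FAIRE. No setting split the sites by forebrain H3K4me3, where the lens H3K4me1 and lens H3K4me3 orders were not kept. With forebrain H3K4me3, lens H3K4me3 was at 66.0% of the sites against 84.7% with neither lens mark. Without forebrain H3K4me3 it was at 3.71% against 2.01%. Pax6 kept its order in 10 of 10, but the 500 bp window gave 2.28% against 2.27% for forebrain Pax6. The reported lens Pax6 intervals overlapped, so no order is read for Pax6. Forebrain polymerase was higher at the sites in 9 of 10, but lower among those with forebrain H3K4me3, at 2.86% against 3.77%. Forebrain H3K4me1 was higher in 4 of 10, so no order is read from it. The number of sites ran from 2258 to 2821. No paired analysis was possible because each value comes from 1 list per group and from no test. Of the 4 island lists that of lens H3K4me1 held the fewest ChIP reads, 1258799, and the depth behind the others, from MACS2, is unknown.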
